A study of Mus musculus with 6 samples.

Results

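The 8 mouse genes described here, Tmem176a, Tmem176b, Ms4a4a, Ms4a4c, Ms4a6b, Ms4a6c, Ms4a6d and Ms4a7, encode small proteins that cross the membrane 4 times. They are the rows of the count table whose Ensembl gene IDs carry these symbols, 8 of 26519 genes in the table, and all 8 passed the filter on low counts. They were picked with fold changes of this same comparison already known, so their differences between the genotypes are given as a description, with no p-value. RNA sequencing was done on dendritic cells isolated from MC38 tumours, a mouse colon carcinoma line, on day 10 after inoculation. The MAVS KO group is 3 libraries from tumours grown in hosts lacking MAVS, and the WT group is 3 libraries from tumours grown in wild-type hosts. MAVS is the adaptor on mitochondria through which RIG-I and MDA5 signal once they bind viral or other foreign RNA. The KO and the WT hosts received the same tumour line, and the genotype is that of the host, in all its cells as far as the labels say. The labels give no strain, age, sex, deleted exon, sorting gate or number of animals, and do not say whether each replicate is a separate animal, so any p-value measures only the spread between these libraries.

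TMEM176A and TMEM176B are related cation channels of the late endosomal and Golgi membranes of dendritic cells and macrophages. In mouse, both are abundant in immature and conventional dendritic cells, and in RORgt-positive lymphocytes, and decline when dendritic cells mature. TMEM176B has been described as an inhibitor of the NLRP3 inflammasome. The best known MS4A proteins are CD20 (MS4A1) on B cells and the beta chain of the IgE receptor (MS4A2) on mast cells. The other members are spread over myeloid and lymphoid cells, where they sit beside receptors in the plasma membrane and alter their signalling.

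Library totals were 14466640 to 18862534 counts in MAVS KO and 17357031 to 20851733 counts in WT libraries. Mavs itself (chromosome 2) stood at 8.99, 12.8 and 9.45 CPM in MAVS KO, against 33.9, 39.7 and 39.7 CPM in WT libraries (log2 fold change -1.86, SE 0.18, edgeR adjusted p = 0.0017 after Benjamini-Hochberg correction of the quasi-likelihood test). CPM values are counts scaled to library depth, here with the trimmed mean of M values (TMM). Markers of dendritic cells were present, and so were those of macrophages, some at high levels. Csf1r, the receptor for macrophage colony-stimulating factor, averaged 1287 CPM in MAVS KO and 1354 CPM in WT. Flt3, the receptor that drives dendritic cell development, averaged 12.4 CPM in MAVS KO and 49.9 CPM in WT. Levels varied widely within each kind. Among dendritic cell markers, Itgax averaged 293 CPM in MAVS KO and 246 CPM in WT, and Cd74 21439 and 18165 CPM. The macrophage marker Adgre1 averaged 61.5 CPM in MAVS KO and 72.5 CPM in WT. Single markers therefore do not give the proportions of these cells. These are bulk libraries, in which fewer cells of a type and less RNA per cell cannot be told apart.

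The 3 sequences below are shown because they mark what the members share at the DNA level: a Tmem176 pair that starts back to back, and an Ms4a6b and Ms4a6c pair with copied upstream sequence. RefSeq gave a window of 250 bases before to 50 bases after a start (GRCm38.p6) for 7 of the 8 members; Ms4a6d had none. All are on the + strand and written 5′ to 3′. In the Tmem176a window (chr6:48841233-48841532), capitals mark the stretch between the Tmem176b start, which reads leftward, and the Tmem176a start, which reads rightward. In the other 2 windows (Ms4a6b, chr19:11518309-11518608, and Ms4a6c, chr19:11469118-11469417), capitals mark the runs of at least 15 bases that both hold.
Tmem176a: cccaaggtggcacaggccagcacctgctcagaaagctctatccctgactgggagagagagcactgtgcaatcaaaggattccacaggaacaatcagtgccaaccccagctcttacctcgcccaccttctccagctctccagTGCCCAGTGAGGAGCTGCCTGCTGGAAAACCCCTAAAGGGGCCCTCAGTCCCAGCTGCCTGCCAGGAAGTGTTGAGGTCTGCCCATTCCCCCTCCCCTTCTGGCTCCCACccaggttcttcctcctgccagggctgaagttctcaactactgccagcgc
Ms4a6b: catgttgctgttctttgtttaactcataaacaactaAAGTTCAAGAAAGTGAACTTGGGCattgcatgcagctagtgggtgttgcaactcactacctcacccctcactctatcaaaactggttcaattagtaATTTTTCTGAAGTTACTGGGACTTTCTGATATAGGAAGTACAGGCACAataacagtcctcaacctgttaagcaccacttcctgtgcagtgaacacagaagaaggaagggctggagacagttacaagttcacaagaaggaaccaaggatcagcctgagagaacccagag
Ms4a6c: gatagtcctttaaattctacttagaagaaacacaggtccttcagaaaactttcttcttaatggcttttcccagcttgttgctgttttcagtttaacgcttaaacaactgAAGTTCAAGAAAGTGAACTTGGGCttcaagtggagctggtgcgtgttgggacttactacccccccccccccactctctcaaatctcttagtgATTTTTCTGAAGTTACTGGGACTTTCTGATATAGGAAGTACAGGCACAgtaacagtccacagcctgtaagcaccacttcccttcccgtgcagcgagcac

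The annotated Tmem176b start at 48841374 and the Tmem176a start at 48841483 lie 109 bases apart, and RefSeq lists 3 starts for Tmem176b and 2 for Tmem176a. The window holds 59.7% G and C, against a mean of 53.8% over all RefSeq windows. The Ms4a6b and Ms4a6c windows share runs of 24 and 48 bases. The run of 48 bases begins 118 bases before the Ms4a6b start and 49 bases before the Ms4a6c start. This comparison took the first listed window of each gene, read in the direction of that gene. Among the other 20 pairs of such windows, the longest shared run was 7 to 9 bases. The Tmem176b window used there (48841088 to 48841387, − strand) overlaps the Tmem176a window on the opposite strand. The bases that these windows have in common are therefore not counted as a shared run. On both strands of the 11 member windows 4 motifs were searched, and 0 windows held any of them: the interferon-stimulated response element (GAAA, any 2 bases, GAAA; 3.44% of 32851 windows hold it), the gamma-activated site TTCNNNGAA (8.30%), the PU.1 and ETS core GAGGAAGT (3.20%) and the ROR element core AGGTCA (16.3%). No match says only that these letters are not in these windows.

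Tmem176a and Tmem176b were both about 3 times lower in MAVS KO than in WT libraries. Tmem176a (ENSMUSG00000023367, chromosome 6, 48840919 to 48847071, + strand, mm10) had 8.71, 10.4 and 7.76 CPM in MAVS KO libraries, against 36.9, 33.0 and 19.8 CPM in WT libraries. Tmem176b (ENSMUSG00000029810, chromosome 6, 48833818 to 48841496, − strand) had 16.3, 19.1 and 22.6 CPM in MAVS KO libraries, against 77.8, 63.9 and 37.4 CPM in WT libraries. For both genes every MAVS KO library lay below every WT library, and the WT libraries spread more widely, with WT replicate 3 the lowest of them in each. The means were 8.95 ± 1.33 CPM in MAVS KO and 29.9 ± 8.94 CPM in WT for Tmem176a, and 19.3 ± 3.14 CPM in MAVS KO and 59.7 ± 20.5 CPM in WT for Tmem176b (SD, n = 3 each). The log2 fold changes were -1.74 (SE 0.25, 95% interval -2.28 to -1.19) for Tmem176a and -1.63 (SE 0.25, 95% interval -2.18 to -1.08) for Tmem176b. Both pass the edgeR threshold of 0.05 on the adjusted p. Both calls were lost without MAVS KO replicate 1 or replicate 3. Without MAVS KO replicate 2 the Tmem176b call was lost and Tmem176a was still called. In the same fits, calls over all genes fell from 354 to 39, 64 and 36 without MAVS KO replicate 1, 2 and 3. The log2 fold changes stayed between -1.96 and -1.56 for Tmem176a and between -1.88 and -1.40 for Tmem176b over all alternatives run.

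The proportion of the 2 genes to each other overlapped between the groups. Tmem176a had 0.534, 0.544 and 0.344 reads per Tmem176b read in MAVS KO libraries, against 0.474, 0.517 and 0.530 in WT libraries. MAVS KO replicate 3 was lower than the rest and the other 5 libraries lay close together, with values of both groups among them. The mean log2 ratio was -1.10 ± 0.373 in MAVS KO and -0.98 ± 0.0848 in WT (SD, n = 3 each), a difference of -0.12, given as a description with no test since both genes were chosen on this contrast. Without MAVS KO replicate 3 the difference was 0.09. This ratio does not depend on scaling. Their exons overlap on opposite strands by 81 bases, 2.13% of Tmem176a and 3.42% of Tmem176b exon bases, and reads there could have gone to either gene because the sources used here do not give the strand setting of the counting.

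**Figure D1:**
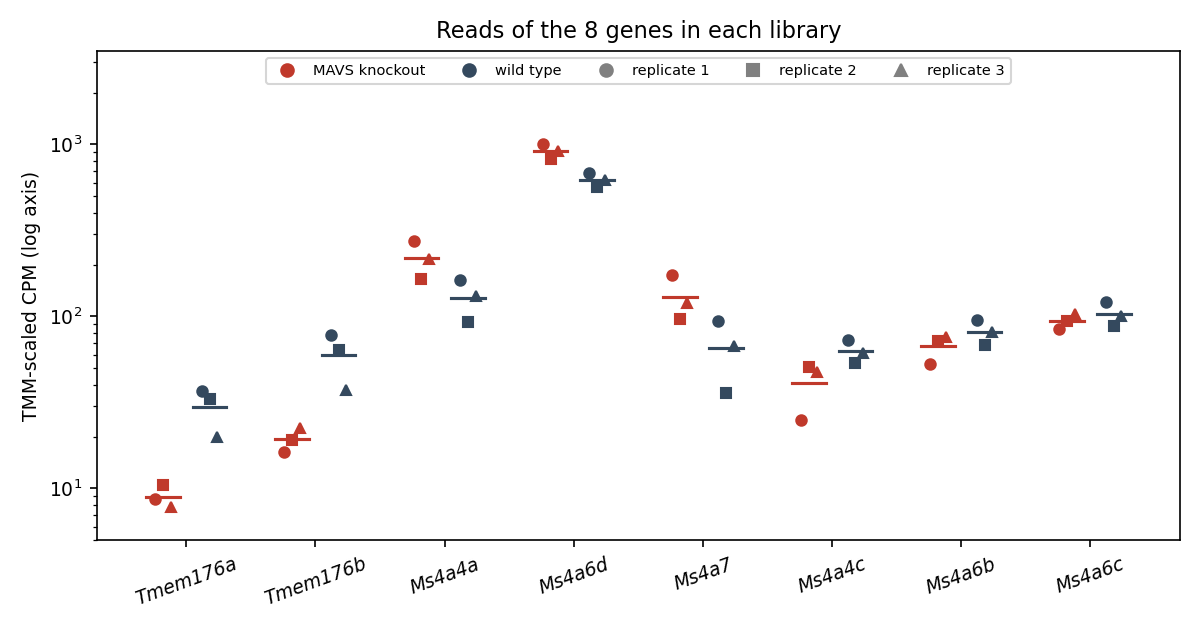
TMM-scaled CPM (log axis) of each of the 8 genes in each library, MAVS KO in red to the left and WT in dark blue to the right; marker shapes are replicate numbers and short lines are group means. The MAVS KO libraries lie below all WT libraries for Tmem176a and Tmem176b, at 7.76 to 10.4 CPM and 16.3 to 22.6 CPM, and above them for Ms4a4a, Ms4a6d and Ms4a7.

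Markers of the dendritic cell types known for the Tmem176 pair were measured beside it. For comparison, edgeR called 1.76% of all tested genes higher and 1.05% lower, and their median log2 fold change was -0.0022. Of 10 markers of type 1 conventional dendritic cells (cDC1), 4 were called lower and 0 higher in MAVS KO, with a median log2 fold change of -0.76; Xcr1, the cDC1 chemokine receptor, averaged 7.79 CPM in MAVS KO and 35.1 CPM in WT, and Snx22 averaged 1.60 CPM in MAVS KO and 8.69 CPM in WT. The summed level of the cDC1 list was 936 to 1047 CPM in MAVS KO and 876 to 1439 CPM in WT. Most of that sum came from Irf8 and Naaa, neither of which was called. Irf8 averaged 436 CPM in MAVS KO and 378 CPM in WT, and Naaa 466 CPM in MAVS KO and 578 CPM in WT. Every other marker of the cDC1 list had a lower mean in MAVS KO than in WT. For Clec9a the means were close, at 7.15 CPM in MAVS KO and 7.49 CPM in WT. Clec9a, Batf3, Cadm1 and Tlr3 were not called, and their groups overlapped. Of 7 general dendritic cell markers, Flt3 (log2 fold change -2.01) and Zbtb46 (-1.20) were called lower and 5 were not called. Of 6 type 2 (cDC2) markers, Cd209a was called lower (-1.86) and Sirpa higher (0.56). The cDC2 list summed to 2585 to 4333 CPM in MAVS KO and 2282 to 2531 CPM in WT. Most of it was Mgl2, which averaged 2519 CPM in MAVS KO and 1593 CPM in WT and was not called. Of 7 tested markers of mature dendritic cells, Ccr7 (1.12) and Ccl22 (0.95) were called higher and 5 were not called, with a summed level of 596 to 836 CPM in MAVS KO and 464 to 528 CPM in WT. Of RORgt lymphocyte markers, Il17a and Il22 had no row in the table used here and entered the sum as 0, and the list summed to 0 to 1.41 CPM in MAVS KO and 0.691 to 1.92 CPM in WT. The part of these differences in the Tmem176 values was not tested.

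Of the 6 Ms4a genes, Ms4a4a, Ms4a6d and Ms4a7 were higher in every MAVS KO library than in any WT library. They are treated together here, and the other 3 after them, a grouping made after their values were seen. Ms4a6d, reported in mouse macrophages to associate with MHC class II and with the inhibitory receptor VSIG4, was the most abundant of the 8 genes. Ms4a6d (ENSMUSG00000024679, chromosome 19, 11586604 to 11604849, − strand) had 1002, 817 and 912 CPM in MAVS KO libraries, against 679.7, 563 and 622 CPM in WT libraries. Its mean was 910.4 ± 92.7 CPM in MAVS KO and 621 ± 58.4 CPM in WT (SD, n = 3 each). The log2 fold change was 0.55 (SE 0.11, 95% interval 0.30 to 0.80). It is the one Ms4a gene that passes the threshold. With library size alone as the scaling the log2 fold change was 0.38 and it was not called, and of the 6 fits that left out a library it was called in 1, without WT replicate 1, with log2 fold changes of 0.48 to 0.63.

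Ms4a4a encodes a surface protein of macrophages that associates with the beta-glucan receptor Dectin-1 in mouse. Ms4a4a (ENSMUSG00000101389, chromosome 19, 11375523 to 11392790, + strand) had 273.9, 165.2 and 216.4 CPM in MAVS KO libraries, against 162.1, 92.2 and 131.3 CPM in WT libraries. MAVS KO replicate 2 lay only just above WT replicate 1. The log2 fold change was 0.77 (SE 0.22, 95% interval 0.28 to 1.25), and the gene was not called. Ms4a7, a marker of macrophages, including those of the borders of the brain (ENSMUSG00000024672, chromosome 19, 11321039 to 11336146, − strand), had 173.9, 96.7 and 119.3 CPM in MAVS KO libraries, against 93.8, 36.0 and 67.1 CPM in WT libraries. Its log2 fold change was 0.99 (SE 0.31, 95% interval 0.31 to 1.66), and it was not called. Within each group these 3 genes ranked the libraries in one order, replicate 1 highest and replicate 2 lowest.

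Ms4a4c, Ms4a6b and Ms4a6c had lower means in MAVS KO, and none of them was called. Ms4a4c, an interferon-inducible gene of mouse myeloid cells (ENSMUSG00000024675, chromosome 19, 11404770 to 11427246, + strand), had 24.9, 50.6 and 47.3 CPM in MAVS KO libraries, against 73.0, 53.6 and 61.6 CPM in WT libraries. The groups did not overlap, by a narrow margin between MAVS KO replicate 2 and WT replicate 2. Its log2 fold change was -0.62 (SE 0.24, 95% interval -1.14 to -0.09).

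Ms4a6b, known from mouse T cells (ENSMUSG00000024677, chromosome 19, 11516512 to 11531256, + strand), had 53.1, 72.0 and 75.7 CPM in MAVS KO libraries, against 94.7, 67.8 and 81.3 CPM in WT libraries. Ms4a6c (ENSMUSG00000079419, chromosome 19, 11469366 to 11482192, + strand) had 84.5, 94.2 and 103.3 CPM in MAVS KO libraries, against 121.6, 87.7 and 100.2 CPM in WT libraries. The groups overlapped for both genes. The log2 fold changes were -0.28 (SE 0.17, 95% interval -0.65 to 0.09) for Ms4a6b and -0.13 (SE 0.14, 95% interval -0.45 to 0.18) for Ms4a6c. Both intervals include 0. In WT these 3 genes ranked the libraries as the first 3 did, with replicate 1 highest and replicate 2 lowest, whereas in MAVS KO replicate 1 was the lowest for all 3.

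Some of the reads of these genes could have been counted for a relative. Of the 50-base words of Ms4a4c transcripts, 7.73% also occur in Ms4a4b, and 5.85% of those of Ms4a6c occur in Ms4a6b, the pair whose start regions share the printed runs. The share was 2.57% for Ms4a6b in Ms4a6c and 2.31% for Ms4a6d in Ms4a6b. The exons of Ms4a6c overlap those of BE692007, a gene on the opposite strand, over 1088 bases, 53.1% of its exon bases. BE692007 had 728 counts over all libraries and averaged 5.55 CPM in MAVS KO and 7.79 CPM in WT (log2 fold change -0.49, edgeR adjusted p = 0.398).

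**Figure D2:**
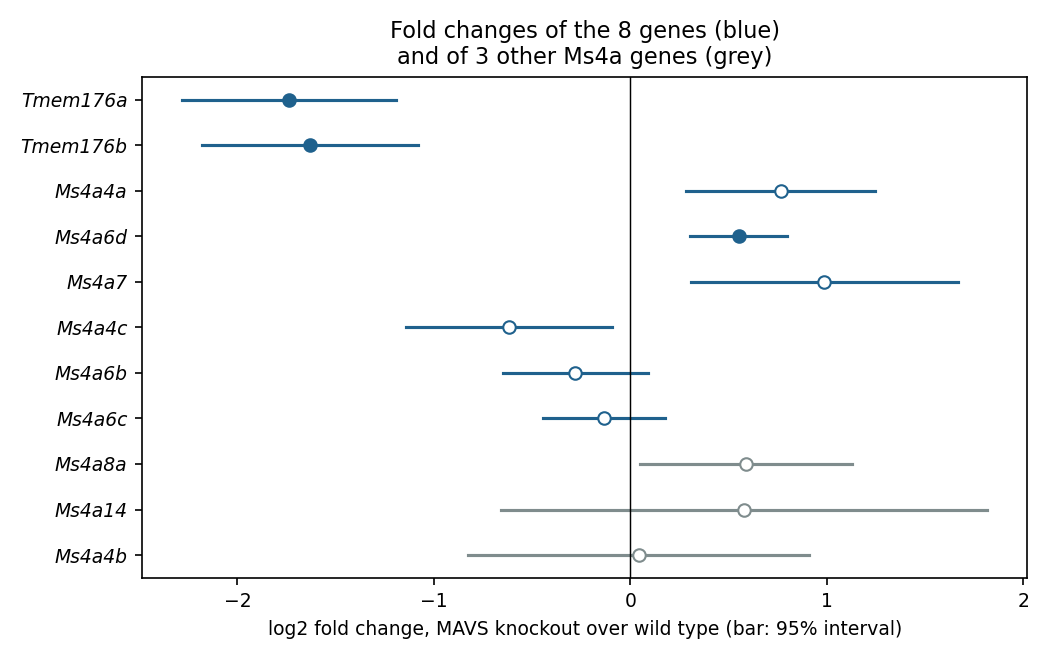
Log2 fold change of MAVS KO over WT (horizontal axis) with its 95% interval for the 8 genes in blue and 3 other Ms4a genes in grey; filled points passed the edgeR threshold and open points did not. The Tmem176 pair lies at -1.74 and -1.63, and the 6 Ms4a members run between -0.62 and 0.99.

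In all, 3 of the 8 genes were called, 1 higher (Ms4a6d) and 2 lower (the Tmem176 pair), and 5 were not. Over all 12580 tested genes, 2.81% were called, 1.76% higher and 1.05% lower, by the same rule. The groups did not overlap for 6 of the 8 genes, 3 higher and 3 lower, against 21.8% of all tested genes. The median log2 fold change was -0.21 for the 8 genes and -0.0022 for all tested genes. The members were chosen on this contrast, so nothing is read from these shares. Without MAVS KO replicate 1, 2 or 3 the number called was 0, 1 and 0.

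Levels of different genes were compared as CPM per kilobase of annotated exons. Ms4a6d stood highest at 525 CPM per kb in MAVS KO and 358 CPM per kb in WT, followed by Ms4a4a at 261 in MAVS KO and 154 in WT, then Ms4a6c at 45.9 in MAVS KO and 50.3 in WT. Below these the order differed between the groups. In MAVS KO it was Ms4a7 (29.2 ± 8.92 CPM per kb), Ms4a4c (23.4 ± 8.0), Ms4a6b (14.9 ± 2.70), Tmem176b (8.15 ± 1.32) and Tmem176a (2.35 ± 0.350). In WT it was Ms4a4c (35.8 ± 5.56 CPM per kb), Tmem176b (25.2 ± 8.66), Ms4a6b (18.1 ± 3.0), Ms4a7 (14.7 ± 6.50) and Tmem176a (7.85 ± 2.35; SD, n = 3 in each group). Neighbours whose means differed by less than the larger of their 2 SDs were Ms4a7 and Ms4a4c in MAVS KO, and Tmem176b and Ms4a6b, and Ms4a6b and Ms4a7, in WT. The sum of the 6 Ms4a genes was 1012, 781 and 906 CPM per kb in MAVS KO libraries, against 729, 531 and 633 CPM per kb in WT libraries.

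Ms4a6d and Ms4a4a made up most of that sum in both groups. Ms4a6d took 58.5 ± 1.63% in MAVS KO and 57.1 ± 3.68% in WT, and Ms4a4a took 28.8 ± 3.55% in MAVS KO and 24.1 ± 2.99% in WT (SD, n = 3 each). The share of Ms4a4c, Ms4a6b and Ms4a6c together was 6.65%, 11.6% and 10.4% in MAVS KO libraries, against 16.8%, 16.7% and 16.2% in WT libraries. This share was nearly constant in WT, at 16.5 ± 0.320%, and lower in every MAVS KO library, at 9.57 ± 2.60%, with MAVS KO replicate 1 the lowest. Of the 3, Ms4a4c took 2.70 ± 1.18% in MAVS KO and 5.68 ± 0.104% in WT. A share also depends on the rest of the sum, and Ms4a6d and Ms4a4a were higher in every MAVS KO library. In CPM the groups overlapped for Ms4a6b and Ms4a6c, and Ms4a4c was separated only by a narrow margin. The grouping of these 3 genes was made from the same values, so the shares are a description only.

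**Figure D3:**
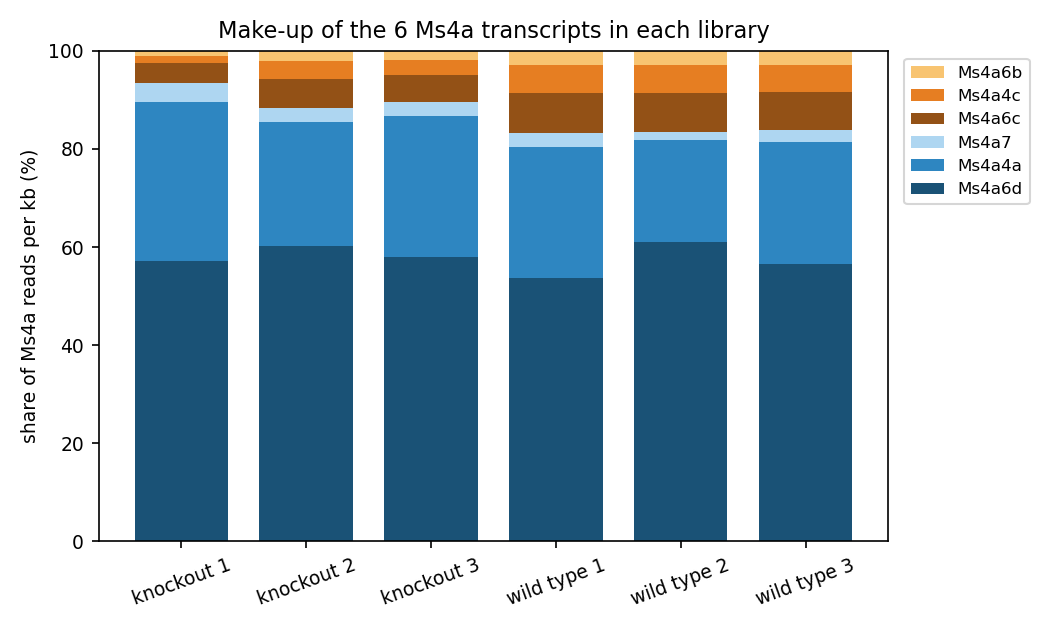
Share of each of the 6 Ms4a genes (vertical axis, percent of their summed CPM per kb) in each library, MAVS KO at left and WT at right. The brown and orange bands at the top, Ms4a6c, Ms4a4c and Ms4a6b, take 6.65% to 11.6% in MAVS KO and 16.2% to 16.8% in WT libraries.

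Macrophage and monocyte markers were measured beside the Ms4a genes. Of 14 macrophage markers, 0 were called by edgeR and 10 had an unadjusted p under 0.05. The DESeq2 Wald test called 5 and limma-voom 0, and the median log2 fold change was 0.32. Over all 12580 tested genes edgeR called 1.76% higher and 1.05% lower, the DESeq2 Wald test called 772 and limma-voom 319. The number of all tested genes at an unadjusted p under 0.05 was not counted, so nothing is read from such counts here or below. C1qa, a subunit of complement C1q, averaged 774 CPM in MAVS KO and 589.9 CPM in WT, and the lipid carrier Apoe averaged 289 CPM in MAVS KO and 517 CPM in WT, neither of which was called. The list summed to 28611 to 36150 CPM in MAVS KO and 26840 to 32020 CPM in WT, and none of its markers was at 0. Most of that sum was Lyz2, so the sum mainly follows this gene. Lyz2 had 19241, 27284 and 19789 CPM in MAVS KO libraries, against 23584, 22317 and 19007 CPM in WT libraries, and was not called. Of 10 monocyte markers, Chil3 was called higher (log2 fold change 2.46), Thbs1 lower (-1.84) and 8 were not called; the list summed to 8858 to 17232 CPM in MAVS KO and 6060 to 7209 CPM in WT. Chil3 alone had 12484, 3237 and 6437 CPM in MAVS KO libraries, against 1669.9, 515 and 1849.7 CPM in WT libraries. Without Chil3 the list summed to 4748 to 5621 CPM in MAVS KO and 4389.8 to 6694 CPM in WT, and the groups overlapped. The part of these markers in the Ms4a values was not tested.

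Markers of other cell types were measured as well, beside 1.76% of all tested genes called higher and 1.05% called lower by edgeR. The tumour epithelium list summed to 419 to 676 CPM in MAVS KO and 363 to 541 CPM in WT, nearly all of it the cadherin Cdh1, at 411 to 671 CPM in MAVS KO and 353 to 525 CPM in WT. The B cell list summed to 15.3 to 19.8 CPM in MAVS KO and 35.4 to 57.1 CPM in WT, with Ighm, the IgM heavy chain, called lower (-1.93), Cd79b not called (-1.73) and Pax5 with no row in the table used here. The mast cell and basophil list summed to 9.83 to 14.2 CPM in MAVS KO and 21.6 to 31.5 CPM in WT, nearly all of it Kit (called lower, -1.27), with Mcpt4 and Mcpt8 having no row. The neutrophil list summed to 93.0 to 98.7 CPM in MAVS KO and 55.5 to 57.2 CPM in WT, with Mmp8 called higher (1.10). Mmp8 alone averaged 61.0 CPM in MAVS KO and 28.6 CPM in WT. The 3 other tested neutrophil markers were not called, and their groups overlapped. T cell, NK cell, plasmacytoid, epithelial and fibroblast lists had 0 of 9, 5, 4, 2 and 3 tested markers called by edgeR, with 1, 1, 1, 0 and 0 at an unadjusted p under 0.05 and 0 called by the DESeq2 Wald test or limma-voom.

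Of the rest of the Ms4a family, Ms4a8a stood at the level of the lower members, and the others were scarce. GENCODE annotates 13 other Ms4a genes, of which 10 had a count and 3 enough counts to be tested. Ms4a8a, an Ms4a gene reported in mouse macrophages, averaged 57.8 CPM in MAVS KO and 38.4 CPM in WT (log2 fold change 0.59, SE 0.24, edgeR adjusted p = 0.267). Per length it stood at 32.2 CPM per kb in MAVS KO and 21.4 CPM per kb in WT, above Ms4a6b in both groups. Ms4a14 averaged 5.14 CPM in MAVS KO and 3.47 CPM in WT (0.58, SE 0.56, edgeR adjusted p = 0.694), and Ms4a4b, known from mouse T cells, averaged 4.68 CPM in MAVS KO and 4.53 CPM in WT (0.04, SE 0.39, edgeR adjusted p = 0.977). None of the 3 was called by edgeR, the DESeq2 Wald test or limma-voom, and 1, Ms4a8a, had an unadjusted p under 0.05. The other 7 had at most 9 counts in any library. Among them, named after their counts were seen, Ms4a1 (CD20) had 0, 0 and 0 counts in MAVS KO libraries, against 9, 0 and 7 counts in WT libraries, and Ms4a2, the beta chain of the IgE receptor, had 0, 0 and 0 counts in MAVS KO, against 9, 0 and 1 in WT.

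The members were chosen by symbol, and each of the 2 families lies in a cluster, so position was not independent of the choice. The 6 Ms4a members span 283.8 kb of chromosome 19 (11321039 to 11604849) and the Tmem176 pair 13.3 kb of chromosome 6 (48833818 to 48847071), whereas Mavs is on chromosome 2. Within 500 kb of the Ms4a members 16 other genes were tested. Among them are the relatives Ms4a8a, Ms4a14 and Ms4a4b, and BE692007, whose exons overlap those of Ms4a6c. Of these, edgeR called 2 higher and 0 lower, against 1.76% higher and 1.05% lower over all tested genes. The DESeq2 Wald test and limma-voom each called 2 of the 16, against 772 and 319 of all 12580 tested genes. An unadjusted edgeR p under 0.05 was found for 5 of the 16, with no count over all genes to set beside it. Slc15a3, a lysosomal transporter of histidine and peptides, averaged 157.7 ± 10.3 CPM in MAVS KO and 98.8 ± 7.57 CPM in WT (SD, n = 3 each; log2 fold change 0.67, SE 0.11, edgeR adjusted p = 0.0164). AW112010, an interferon-inducible transcript of myeloid and T cells, averaged 1139 ± 92.8 CPM in MAVS KO and 418 ± 164 CPM in WT (SD, n = 3 each; 1.45, SE 0.24, edgeR adjusted p = 0.0171). The median log2 fold change of the 16 was 0.03. Slc15a3 and AW112010 lie 265 kb and more to the left of Ms4a7, beyond genes that were not called. The nearest tested gene on the right, Mrpl16, had a log2 fold change of -0.24 (edgeR adjusted p = 0.665).

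Around the Tmem176 pair 20 other genes were tested and 0 were called by edgeR, the DESeq2 Wald test or limma-voom, with 2 at an unadjusted p under 0.05 and a median log2 fold change of -0.02. The nearest tested gene on the left was Gimap3, one of the Gimap family of lymphocyte GTPases, at -0.17 (SE 0.40, edgeR adjusted p = 0.889). On the right it was Gpnmb, a glycoprotein of macrophages and dendritic cells, at 0.49 (SE 0.20, edgeR adjusted p = 0.264). Many of these genes, the Gimap genes among them, stood below 5 CPM, where the error is wide.

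**Figure D4:**
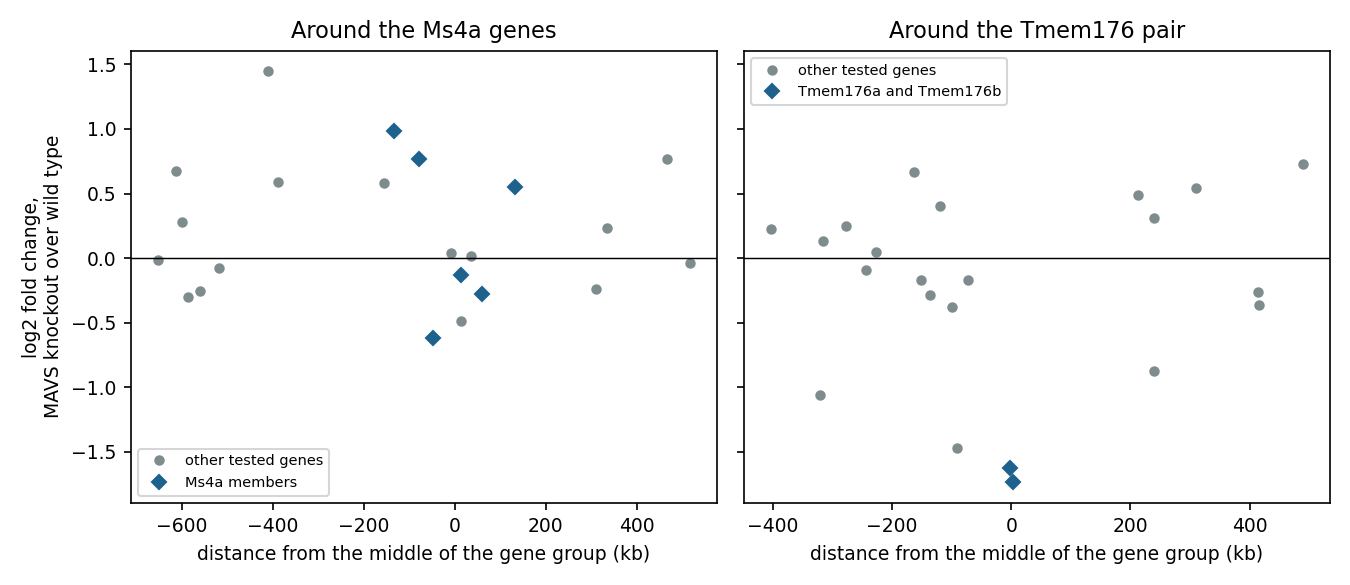
Log2 fold change of MAVS KO over WT (vertical axis) of the members (blue diamonds) and of the other tested genes within 500 kb (grey points), by distance from the middle of the gene group in kb, for the Ms4a genes at left and the Tmem176 pair at right. The Tmem176 pair lies at -1.74 and -1.63 below 20 neighbours of which 0 were called, and the Ms4a members lie on both sides of 0.

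The pathways in which these proteins have been placed were counted as lists. Over all 12580 tested genes, edgeR called 1.76% higher and 1.05% lower, the DESeq2 Wald test called 772 and limma-voom 319. The number of all tested genes at an unadjusted p under 0.05 was not counted. Of 9 genes of the NLRP3 inflammasome, which TMEM176B and Ms4a6d have each been reported to restrain, 0 were called by edgeR, 4 had an unadjusted p under 0.05, and the DESeq2 Wald test called 3 and limma-voom 0; the median log2 fold change was 0.09. The 3 with the smallest p were the inflammatory caspase Casp4 at 0.62 (SE 0.16, edgeR adjusted p = 0.0791), the cytokine Il18 at -1.06 (SE 0.29, edgeR adjusted p = 0.0933) and the cytokine Il1b at 0.55 (SE 0.16, edgeR adjusted p = 0.102). Of 10 genes of Dectin-1 and Syk signalling, 2 rose, 0 fell and 8 were not called, with a median of 0.21. Clec7a, which encodes Dectin-1 itself, had 4444, 3591 and 4293 CPM in MAVS KO libraries, against 2870, 2313 and 2626 CPM in WT libraries (0.66, SE 0.11, edgeR adjusted p = 0.0186). Clec4n (Dectin-2) averaged 2592 CPM in MAVS KO and 1873 CPM in WT (0.47, SE 0.09, edgeR adjusted p = 0.0299), and Clec4e (Mincle) had 0.47 (edgeR adjusted p = 0.0756).

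Of 10 genes of the MHC class II pathway, 2 rose, 0 fell and 8 were not called, with a median log2 fold change of 0.07. Both that rose are lysosomal proteases. Ctss, cathepsin S, averaged 7965 CPM in MAVS KO and 5535 CPM in WT (0.53, SE 0.11, edgeR adjusted p = 0.0364), and Lgmn, legumain, averaged 819 CPM in MAVS KO and 577 CPM in WT (0.50, SE 0.11, edgeR adjusted p = 0.0364). The class II chain gene H2-Eb1 had 0.25 (edgeR adjusted p = 0.191).

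Over the 6 libraries, 8980 other genes with a mean of at least 5 CPM were ranked by how closely their log2 CPM followed the members. Closest to the mean of the Tmem176 pair were Otulinl (Pearson r = 0.993), Cks1b (0.993), which was called lower at -0.74, and Rbmxl1 (0.991), and 262 genes had r over 0.9. Closest to the mean of the 6 Ms4a genes were Wdr55 (0.983), Nagk (0.983) and Sdf2 (0.982), and 139 genes had r over 0.9. These are descriptions over 6 libraries that also carry the difference between the groups and share depth.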

How the data were processed

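RNA sequencing counts of 6 libraries were analysed. The deposited values are raw counts per Ensembl mouse gene (whole numbers, with totals that differ between libraries). The tools listed in the submitters' processing notes are HISAT2 (also as HISAT), HTSeq and DESeq2 with the mm10 build, with no role or version. The sources used here do not give the annotation or strand setting of the counting. Symbols and positions came from GENCODE M21 (26383 of 26519 IDs matched, 136 did not).

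Counts were tested over the whole table with edgeR 4.0.16 (R 4.3.3). Its filterByExpr step, at a minimum count of 10 and a minimum total of 15, left 12580 genes. The fit used TMM scaling, the quasi-likelihood F test without covariates, Benjamini-Hochberg adjustment and a threshold of 0.05. The steps were tested on simulated data. Exon bases are the union of all annotated transcripts. Every row of the table had at least 1 count in some library, and a listed marker with no row entered its list's sum as 0. The Tmem176 ratio used log2 of counts with 0.5 added. For likeness 0.5 was added to the CPM. Library pairs within a group differed by 15.9 to 38.8 chi-square per degree of freedom, so none was a duplicate.

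The members, gene lists, tests and alternatives were chosen with earlier results of these data known. Named genes are all members; other tested Ms4a genes; neighbours that passed, and the nearest on each side; pathway genes that passed plus the 3 with the smallest p; the 2 markers of smallest p in each list; and the 3 closest genes by likeness. Csf1r, Itgax, Cd74, Adgre1, Lyz2, Irf8, Naaa, Clec9a, Batf3, Cadm1, Tlr3 and Mgl2 were named after their values were seen. Markers of the other lists with no call are given as counts. The alternatives were scaling by library size alone or by DESeq2 size factors, filtering on a mean of 5 CPM or not at all, limma-voom (limma 3.58.1), the Wald test of DESeq2 1.42.0, robust dispersion, a block on replicate number and leaving out each library.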

Additional observations from a re-analysis of the deposited data

How the results depend on the processing

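The fold changes of the 8 genes were recomputed under 14 alternatives each, 112 values in all, and none changed sign; 95 stayed on the same side of the threshold, 6 were newly called and 11 were no longer called. The number of members called was 3, and it was 6 with no filter on low counts, 5 with the replicate block, 4 with the DESeq2 Wald test, 2 with library size alone, 3 under each of the other alternatives that kept all libraries, and 0 to 3 when a library was left out. Ms4a4a was called under the DESeq2 Wald test, no filter and the block, Ms4a7 under no filter and the block, and Ms4a4c under no filter. Over all genes 354 were called; 772 were called with the DESeq2 Wald test, 924 with no filter, 414 with the replicate block and 36 to 277 when a library was left out (39, 64 and 36 without MAVS KO replicate 1, 2 and 3, and 193, 151 and 277 without WT replicate 1, 2 and 3). With library size alone the median over all genes moved to a log2 fold change of -0.17, against -0.0022 with TMM, and the calls were 102 higher and 341 lower, against 222 and 132. The cause of these changes was not tested.

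The labels name nothing that same-numbered libraries share beyond the number. Deviations of same-numbered libraries correlated across genes at 0.03, 0.11 and -0.03. The libraries did not all correlate best with their own number (MAVS KO replicate 1 did so with WT replicate 3, at 0.13). With 3 libraries per group, these values do not settle whether the numbers mark a pairing. The replicate block lowered the SE from 0.22 to 0.12 for Ms4a4a and from 0.31 to 0.15 for Ms4a7. It also lowered the SE for Ms4a6d and Tmem176a, and raised it for the other members. The Tmem176a to Tmem176b ratio difference of -0.12 ranged between -0.24 and 0.0919 when a library was left out, the 0.0919 being without MAVS KO replicate 3, and was -0.12 with 1 added to each count. Depth limits the 7 Ms4a genes with at most 9 counts in a library, for which a difference was not detectable at this depth.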
